A study of Rattus norvegicus with 50 samples.

Results

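The response of the rat lung 3 days after the end of a 4-week inhalation of titanium dioxide (TiO2) nanoparticles was measured on 10 arrays out of the 50 arrays of the study. They were selected by their sample titles, which name 5 exposed and 5 control rats at day 3 (D3), and each array holds the lung RNA of 1 rat. All rats were males of the inbred strain F344 and 12 weeks old. Exposed rats breathed a TiO2 P25 nano-aerosol through the nose only at 10 mg/m3, for 6 h a day on 5 days a week during 4 weeks, and control rats breathed air in the same way. The study also took lungs right after the exposure (D0) and after 28 days (D28), each with 5 control and 5 exposed rats of their own, which serve here to place the D3 response in time. RNA came from the accessory lobe, a small lobe of the right lung, so that each value is a mean over all cells of that lobe. In such bulk RNA, fewer cells of a type and less RNA per cell cannot be told apart. The p-values below set each difference against the spread between rats within their groups. That spread was estimated over all 50 arrays and not from the D3 rats alone, except where a fit to fewer arrays is named.

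Poorly soluble particles that reach the alveoli are taken up by alveolar macrophages. Macrophages and epithelial cells that take up such particles release chemokines, small secreted proteins that draw neutrophils and monocytes out of the blood. The airway and alveolar epithelium also responds by itself, with antimicrobial and oxidant-generating proteins, protease and mucin genes, and acute phase proteins that are otherwise best known from the liver.

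Median processed signals of the 10 arrays lay between 269 and 465 fluorescence units, and 70.1% to 79% of gene spots were well above background. Between arrays the correlation over genes, which are not independent replicates, was 0.971 to 0.992. They lay on 5 slides, of which 4 held control and exposed rats of D3, while exposed rat 1 was the single D3 array on its slide. The first principal component, with 32.4% of the variance, followed slide by 98% and exposure by 14.8%. The second, with 14.7% of the variance, followed exposure by 64.2% and slide by 16.6%. Of 10 genes that mark the lung, among them Sftpc of alveolar type 2 cells, Ager of alveolar type 1 cells and Scgb1a1 of club cells, 9 were well above background on all 10 arrays, and Marco of alveolar macrophages was so on 1 control array. None of the 15 cardiac, 11 red blood cell, 10 adipose and 12 skeletal muscle markers was called different between the groups. Only 3.48% of all genes were called, so the lack of a call in so few markers says little. Nppa, Plin1, Lep, Myh4 and Myl1 among them were well above background on no array. Of the 9 mesothelium markers 5 were lower in exposed rats, which is described with the other lower genes.

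At D3, 877 of 25237 genes were differentially expressed (DEGs, limma with Benjamini-Hochberg adjusted p under 0.05 and at least 1.5-fold), which is 3.48% of the genes tested. In exposed rats 478 (1.89%) were over-expressed and 399 (1.58%) were under-expressed, so that 54.5% of the DEGs were over-expressed. That share was 69% with the normal-exponential background correction (323 over-expressed and 145 under-expressed genes) and 69.9% with the deposited series matrix (374 and 161), and 60.2% with each array scaled to its 75th percentile. The share was lower, at 44.7%, with no fold limit. It was 47.9% without exposed rat 4, 49.1% without control rat 3 and 50% without control rat 4, so which direction held more DEGs depended on these choices. Over-expressed genes reached larger changes. At least 2-fold changes were seen in 197 over-expressed and 110 under-expressed genes, and at least 4-fold changes in 41 and 5. The 5 exposed and 5 control values did not overlap in 559 of the DEGs (63.7%), against 6.87% of all genes. A larger share among DEGs follows in part from their selection on these same values. Over all genes tested the median log2 change was -0.02.

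Without exposed rat 4 the number of under-expressed genes was 620 in place of 399, and the number of DEGs was 1189 in place of 877. Within the 4 slides that held both groups, 818 of the 877 DEGs (93.4%) kept 1 direction on every slide, against 32.8% of all genes. The DEGs were called on these same arrays, so their higher share follows in part from that selection. With slide as a fixed block in the fit to all arrays, 593 genes were over-expressed and 407 under-expressed, and 738 of the 877 DEGs (84.2%) were called again. With slide as a random block the counts were 586 and 486, and 823 DEGs were called again.

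**Figure D1:**
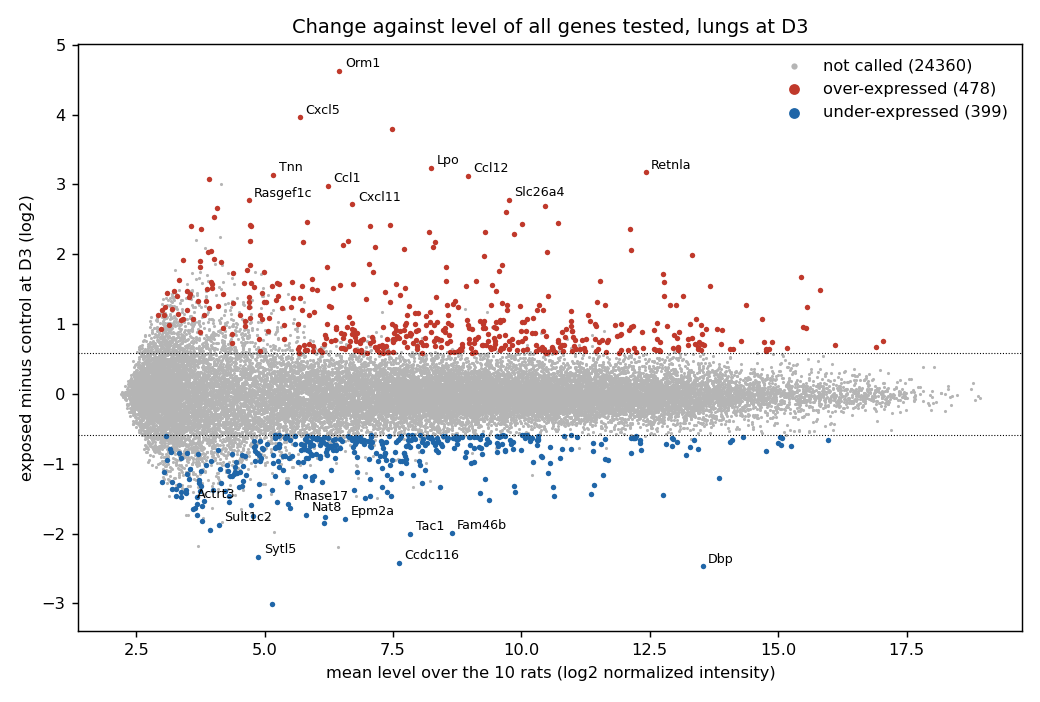
Change against level at D3: each point is 1 of the 25237 genes tested, the horizontal axis is the mean log2 normalized intensity over the 10 rats, the vertical axis is the log2 difference exposed minus control, and the dotted lines mark 1.5-fold. The 478 over-expressed genes reach 4.63 (Orm1), and the labelled under-expressed genes reach -2.47 (Dbp). Labelled are the 10 largest changes in each direction among genes with a symbol, detection in the higher group and no overlap between the groups.

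Chemokine ligands held several of the largest changes. Of 19 CC chemokines tested, 7 were over-expressed and 1 under-expressed, with a median log2 change of 0.32, and of 15 CXC and other chemokines 7 were over-expressed and none under-expressed, with a median of 0.55. Beside these and the list counts at D3 below, 1.89% of all genes tested were over-expressed and 1.58% under-expressed. The CXC count under-expressed was 1 without control rat 4 or without exposed rat 4. Cxcl5, a ligand of the neutrophil receptor Cxcr2 that the list does not hold under this name, had log2 levels of 4.26, 3.12, 4.02, 3.64 and 3.49 in control rats 1 to 5 and of 7.38, 7.33, 7.46, 8.28 and 7.88 in exposed rats 1 to 5. The lowest exposed rat lay far above the highest control rat, and Cxcl5 was well above background on 2 of 5 control arrays. It rose 15.6-fold, by 3.96 on the log2 scale (SE 0.35, adjusted p = 1.5e-11), and by 1.74 under the normal-exponential background correction and 1.98 with the series matrix. Why these values are smaller was not tested.

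Among the 7 over-expressed CC chemokines were ligands that attract monocytes. Ccl7 was 8.44, 8.79, 8.2, 8.64 and 7.87 in control rats and 11.23, 10.86, 11.37, 10.3 and 11.21 in exposed rats, a 6.1-fold rise (log2 change 2.61, SE 0.24, adjusted p = 6.9e-11). Exposed rat 4 was the lowest of its group, still clear of every control rat. Ccl2, the main ligand of the monocyte receptor Ccr2, rose by 2.06 (SE 0.23, adjusted p = 5.2e-09), with control rats from 10.55 to 11.71 and exposed rats from 13.01 to 13.38. Ccl12 rose by 3.13 (SE 0.41, adjusted p = 3.0e-07) and was spread among exposed rats, from 9.34 in rat 4 to 11.25 in rat 5. Ccl1, a ligand of Ccr8 on T cells, rose by 2.98 (adjusted p = 8.5e-09) and by 1.48 under the normal-exponential correction. Ccl17 and Ccl22, ligands of Ccr4, rose by 1.24 and 1.47 (adjusted p = 1.7e-10 and 6.0e-12). Ccl11 (eotaxin), which attracts eosinophils, went the other way in every exposed rat, at 10.18, 10.1, 9.98, 10.21 and 10.02 in control and 9.18, 9.17, 9.29, 9.29 and 9.49 in exposed rats (log2 change -0.81, adjusted p = 0.000759). The 2 CC chemokines best known from neutrophil and macrophage activation, Ccl3 and Ccl4, changed by 0.31 and 0.46 and were not called.

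Among CXC ligands, Cxcl1 and Cxcl2, both ligands of Cxcr2 like Cxcl5, were less uniform. Cxcl1 was 11.94, 12.32, 12.26, 12.23 and 11.68 in control rats and 13.45, 12.74, 13.9, 14.28 and 13.04 in exposed rats (log2 change 1.40, SE 0.25, adjusted p = 8.5e-05). Exposed rats 2 and 5 lay close to the control rats. In a fit to the D3 arrays alone with slide as a block, which leaves exposed rat 1 without weight because it is alone on its slide, the adjusted p was 0.0752. Cxcl2 rose by 1.27 (adjusted p = 0.0126), and control rat 2, at 12.9, was above 4 of the 5 exposed rats. Cx3cl1 (fractalkine), a membrane-bound attractant of monocytes, rose by 1.07 (adjusted p = 4.4e-10) with no overlap between the groups. The promoters of chemokine genes are textbook targets of NF-kB, the factor that inflammatory signals release into the nucleus. Its site was searched as GGG, any 2 bases and TTTCC on both strands in the 250 bases before each gene start, where 1.28% of all 27457 RefSeq promoters held it. Of the called CXC members 5 had a promoter in RefSeq and 2 held the site, and of the called CC members 1 of 6 did (Ccl20). The 2 CXC promoters are shown because these genes stand side by side on chromosome 14 and each holds the site at more than 1 place, in capitals (GRCr8, minus strand, chr14:17479360-17479459 for Cxcl1 and chr14:17467265-17467364 for Cxcl2).
Cxcl1: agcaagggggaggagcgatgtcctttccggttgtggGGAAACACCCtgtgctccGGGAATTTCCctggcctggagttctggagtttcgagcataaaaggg
Cxcl2: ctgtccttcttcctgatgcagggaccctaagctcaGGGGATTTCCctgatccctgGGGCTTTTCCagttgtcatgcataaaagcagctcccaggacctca

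Acute phase and antimicrobial genes included the largest change with a gene symbol. Of 18 members, 7 were over-expressed and none under-expressed, with a median log2 change of 0.45. Orm1 (orosomucoid, a plasma acute phase protein) was 5.06, 2.65, 5.21, 4.34 and 3.44 in control rats and 8.76, 8.98, 8.74, 8.52 and 8.85 in exposed rats. Exposed rats lay within a narrow band, while the control rats were scattered near background, with 2 of 5 arrays well above it. The fold was 24.7 (log2 change 4.63, SE 0.43, adjusted p = 7.2e-11), and the log2 change was 2.45 under the normal-exponential correction and 2.74 with the series matrix. Lcn2 (lipocalin 2), which withholds iron from bacteria, was 9.81, 9.29, 9.93, 9.51 and 8.92 in control rats and 12.44, 11.92, 12.13, 11.78 and 11.44 in exposed rats (log2 change 2.45, SE 0.21, adjusted p = 4.9e-12). Hpx and Hp, which bind free heme and haemoglobin, rose by 1.57 and 1.27, and C3, the central complement protein, by 1.25 (adjusted p = 8.6e-16). C3 was measured at 14.76 to 15.07 in control rats and 16.13 to 16.33 in exposed rats. Crp, Fgb and Reg3g, other acute phase genes of the list, changed by 0.07, 0.03 and 0.27 and were not called.

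Of 20 neutrophil genes, 4 were over-expressed, with a median of 0.35, and 7 were so without control rat 2. S100a9, a subunit of calprotectin that fills the neutrophil cytoplasm, was 14.85, 15.14, 14.48, 14.18 and 14.41 in control and 15.98, 16.43, 16.17, 16.28 and 16.57 in exposed rats (log2 change 1.68, SE 0.17, adjusted p = 2.7e-10). Its partner S100a8 rose by 1.55. Cd177, a surface protein of neutrophils, rose 3.99-fold (log2 change 2.00, adjusted p = 3.1e-13), from 11.99 to 12.71 in control rats to 14.21 to 14.44 in exposed rats. Il1r2, a decoy receptor for interleukin-1, rose by 1.77. Genes for granule proteins that neutrophils make in the marrow gave smaller values, with Mpo at 0.25, Elane at 0.34, Prtn3 at 0.05 and Camp at 0.12, and none of these was called. The receptors Cxcr2 and Csf3r changed by 0.45 and 0.50 without passing the 1.5-fold limit. The receptors Fpr1, Fpr2 and Cxcr1 lay on the other side, at -0.41, -0.36 and -0.10, and were not called either. In the mean over all 20 members, control rat 2 (0.08 above the members' mean over the 10 rats) lay among the exposed rats (0.05 to 0.6).

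Genes of alternative macrophage activation and of macrophages loaded with particles or lipid moved in part. Of 15 alternative activation genes 5 were over-expressed and 2 under-expressed, with a median of 0.17, and 1 was under-expressed without control rat 1, control rat 2, exposed rat 2 or exposed rat 3. Among the 5 are Ccl17 and Ccl22, which are counted with the CC chemokines as well. The median ran from 0.03 without exposed rat 4 or exposed rat 5 to 0.39 without control rat 2, and it was 0.35 with slide as a fixed block and 0 with array weights. Retnla (resistin-like alpha, a secreted protein induced by interleukins 4 and 13) was 10.83, 10.77, 11.2, 10.66 and 10.71 in control rats and 13.98, 14.04, 13.75, 13.78 and 14.5 in exposed rats. It rose 9.03-fold (log2 change 3.17, SE 0.18, adjusted p = 3.1e-17), and no rat came near the other group. The chitinase-like Chi3l1 and the chitinase Chia rose by 1.61 and 1.49 (adjusted p = 5.9e-15 and 5.1e-14). Alox15 was under-expressed (-1.14, adjusted p = 1.3e-08), as was Il13ra2, the decoy receptor of interleukin 13 (-0.89, adjusted p = 0.0162). Arg1, Mrc1 and Cd163, other textbook markers of this state, changed by 0.42, -0.22 and -0.43 and were not called.

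Of 22 genes of particle-laden and lipid macrophages 3 were over-expressed, with a median of 0.23. Spp1 (osteopontin) was 9.11, 8.84, 9.45, 8.86 and 9.34 in control and 11.43, 11.86, 11.56, 11.79 and 12.4 in exposed rats, a 6.45-fold rise (log2 change 2.69, SE 0.27, adjusted p = 5.5e-10). The macrophage elastase Mmp12 rose by 1.20 (adjusted p = 4.1e-06) and the fatty acid binding protein Fabp5 by 0.76 (adjusted p = 8.2e-06). The general macrophage marker Cd68 changed by 0.22, Gpnmb by 0.30, Trem2 by 0.01 and Lpl by -0.21, and none was called.

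**Figure D2:**
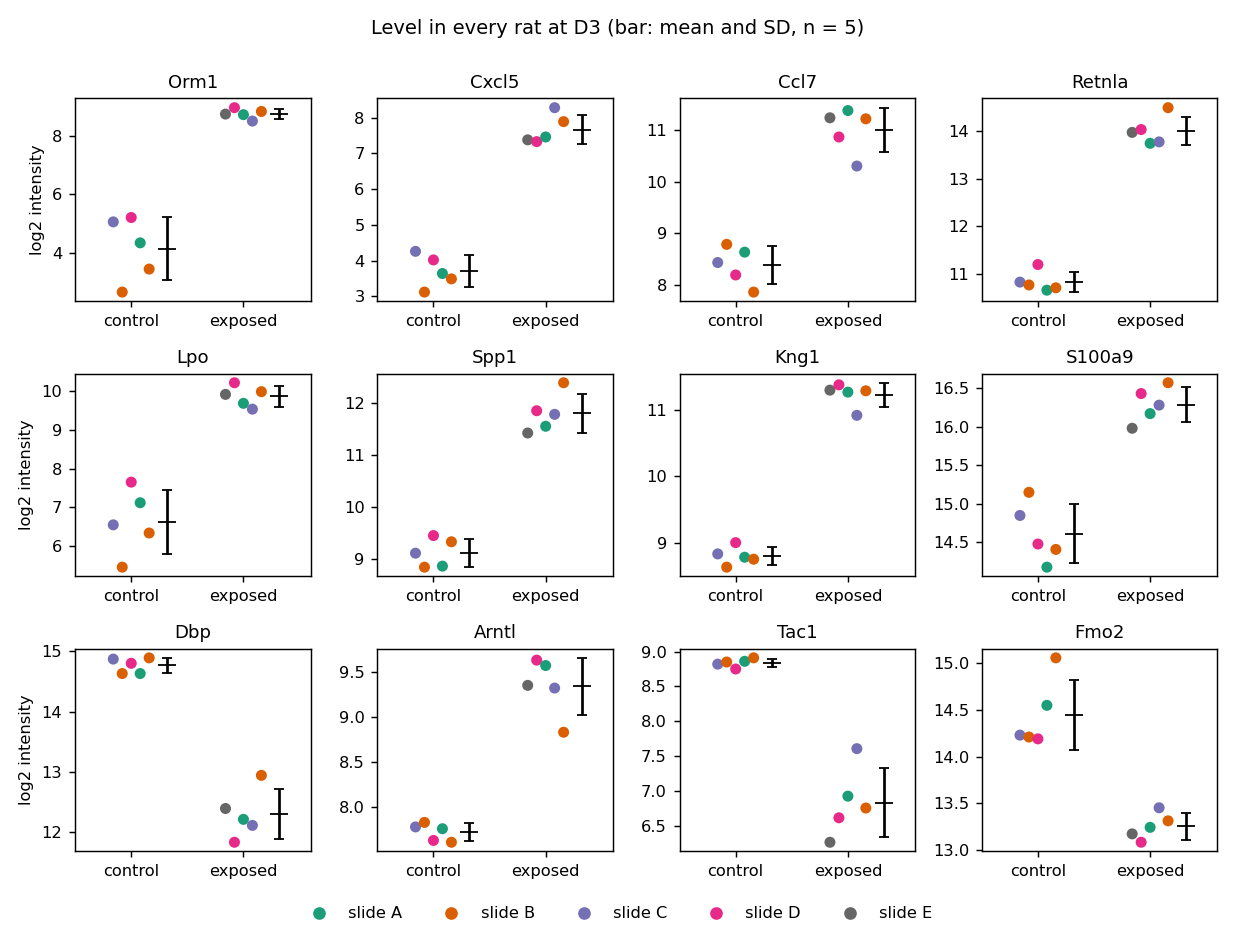
Level of 12 genes in every rat at D3: points are rats, coloured by array slide, on the log2 normalized intensity scale of each gene, and the bar beside each group is the mean and SD (n = 5). In all 12 genes the 5 exposed rats lie on one side of the 5 control rats, as in Orm1 with exposed rats from 8.52 to 8.98 and control rats from 2.65 to 5.21, and the colours mix within each group. Orm1, Cxcl5, Retnla, Lpo, Dbp and Tac1 were named by a rule that requires no overlap, so their separation follows from the choice. The others were named as called members with large changes in their lists, so their separation follows in part from selection too. Over all genes tested 6.87% did not overlap.

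Airway secretory and oxidant defence genes were among the strongest groups. Of 22 members 8 were over-expressed and none under-expressed, with a median of 0.42. Lpo (lactoperoxidase, which makes antimicrobial oxidants in airway fluid) was 6.56, 5.46, 7.65, 7.12 and 6.34 in control rats and 9.91, 10.21, 9.68, 9.53 and 9.98 in exposed rats (9.43-fold, log2 change 3.24, SE 0.29, adjusted p = 2.7e-11). Slc26a4 (pendrin), the anion exchanger that carries thiocyanate, the substrate of lactoperoxidase, into the airway, was 8.57, 8.55, 8.35, 8.37 and 7.99 in control and 10.98, 10.98, 11.09, 11.26 and 11.42 in exposed rats (6.87-fold, log2 change 2.78, adjusted p = 1.8e-16). Duox1 and its maturation factor Duoxa1, which supply the hydrogen peroxide that the peroxidase uses, rose by 1.08 and 0.95 (adjusted p = 9.0e-11 and 5.2e-07). Peroxidase, carrier and oxidase, the 3 parts of this system, were thus over-expressed, whereas the second dual oxidase, Duox2, and its factor Duoxa2 changed by 0.42 and -0.09 without a call.

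Bpifb1, a secreted airway protein, was steady in control rats, from 10.84 to 11, and lay at 12.91 to 13.54 in exposed rats (log2 change 2.37, adjusted p = 2.3e-09). The membrane mucins Muc20 and Muc1 rose by 1.82 and 0.86. The secreted goblet cell mucin Muc5ac and its regulator Spdef changed by 0.42 and 0.35, and the club cell gene Scgb1a1 by -0.17, and were not called. Slc26a4, Lpo and Bpifb1 kept their call in each of the 23 alternative settings tried.

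Epithelial proteases and matrix metalloproteinases had 7 over-expressed members and 1 under-expressed member of 25, with a median of 0.14. The median was 0.03 without exposed rat 1, 0.02 and 0.06 with slide as a fixed and a random block, and -0.01 with slide as a block in the D3 arrays alone, whereas the counts with slide as a block were 7 and 1. The serine protease Prss30 was 8.49, 8.19, 7.86, 8.1 and 8.04 in control and 10.38, 10.35, 10.61, 10.54 and 10.42 in exposed rats (log2 change 2.32, SE 0.28, adjusted p = 3.9e-08). Mmp7 (matrilysin), an epithelial metalloproteinase, rose by 2.10 (adjusted p = 9.6e-09), from at most 7.29 in control rats to at least 9.03 in exposed rats. The membrane-bound proteases Tmprss9 and Tmprss4 rose by 1.57 and 0.92, and Prss22 by 1.58 (adjusted p = 0.00604, and 0.0789 among the D3 arrays alone). Timp3, an inhibitor of metalloproteinases that is bound to matrix, fell by 1.13 (adjusted p = 0.000666), while Timp1 changed by 0.18.

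Complement, coagulation and kinin genes had 8 over-expressed members and 1 under-expressed member of 35, with a median of 0.24. Kng1 (kininogen, the precursor of bradykinin) was 8.83, 8.63, 9, 8.78 and 8.75 in control rats and 11.3, 11.38, 11.27, 10.92 and 11.29 in exposed rats, a 5.42-fold rise (log2 change 2.44, SE 0.14, adjusted p = 1.3e-16). Its close relative Kng1l1 rose by 2.43 (adjusted p = 9.7e-10), and whether the 2 probes share target RNA was not tested. The bradykinin receptors Bdkrb1 and Bdkrb2 changed by -0.07 and 0.01 and were not called. Cfi, the protease that inactivates C3b, had the smallest adjusted p among the genes described here: it was 11.88, 11.93, 11.87, 11.86 and 11.99 in control and 13.46, 13.6, 13.44, 13.66 and 13.94 in exposed rats (3.28-fold, log2 change 1.71, SE 0.09, adjusted p = 4.6e-18). Factor B (Cfb), C6 and factor X (F10) rose by 0.67, 0.76 and 1.54, and F13a1, a subunit of the clot-stabilizing factor XIII that macrophages carry, fell by 0.74 (adjusted p = 0.00884).

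Of 23 interleukin-1, Toll-like receptor and cytokine genes 5 were over-expressed, with a median of 0.33, and 3 were so in a fit to the D3 arrays alone. Tnf was 10.81, 10.53, 10.95, 11.13 and 10.69 in control and 12.42, 11.58, 12.38, 12.39 and 11.89 in exposed rats (log2 change 1.31, SE 0.22, adjusted p = 2.8e-05). Cd14, the co-receptor for bacterial lipopolysaccharide, rose by 0.83 with little spread in either group, at 11.38 to 11.52 against 12.16 to 12.35 (adjusted p = 3.2e-10). The interleukin-1 receptor antagonist Il1rn rose by 0.72 and Il1b by 0.64, but control rat 2, at 13.13, exceeded 4 of the 5 exposed rats in Il1b. Il6, Il17a and Il36g had log2 changes of 0.69, 1.06 and 0.98 and were not called, and Il33 changed by -0.28.

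Of 19 Nrf2 antioxidant genes 5 were over-expressed, with a median of 0.03, and 3 were so in a fit to the D3 arrays alone. Slc7a11, the cystine importer that feeds glutathione synthesis, was 5.46, 5.68, 5.57, 5.46 and 5.69 in control and 7.03, 6.93, 6.91, 7.09 and 7.45 in exposed rats (log2 change 1.51, SE 0.11, adjusted p = 4.0e-14), carried by the brighter of its 2 probes, and by 0.82 under the normal-exponential correction. Srxn1 (sulfiredoxin) and mitochondrial Sod2 rose by 0.74 and 0.67, and the metallothionein Mt1a by 0.70, with an adjusted p of 0.0567 in that fit. The classical Nrf2 targets Nqo1, Hmox1, Gclc and Txnrd1 changed by 0.03, 0.36, -0.21 and 0.07 and were not called.

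Of 30 cell cycle genes 6 were over-expressed, with a median of 0.41, and 28 of the 30 had values above 0. Without exposed rat 5 the count was 3. Ccna2 (cyclin A2) rose by 0.67 (SE 0.12, adjusted p = 0.000105) and Ccnb1 (cyclin B1) by 0.70 (adjusted p = 0.000222), with exposed rat 5 highest of its group in Ccnb1 at 8.85 beside 8.26 to 8.51. Under the normal-exponential correction Ccnb1 was at 0.56, below the fold limit. Mki67, the proliferation marker Ki-67, changed by 0.58, just short of the 1.5-fold limit.

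Of 23 interferon-stimulated genes 8 were over-expressed and none under-expressed, with a median of 0.39. This group depended on single rats. The count was 5 without exposed rat 1 and also without exposed rat 3, and it reached 10 without another rat. It was 3 in a fit to the D3 arrays alone, and 1 at the lowest among the alternatives of processing. Cxcl10, the chemokine induced by interferon that attracts T cells through Cxcr3, was 8.99, 8.5, 8.66, 8.66 and 8.81 in control and 11.21, 10.54, 11.7, 9.86 and 11.72 in exposed rats (4.87-fold, adjusted p = 1.1e-07). Cxcl11, a ligand of the same receptor, was 5.63, 4.91, 5.35, 5.37 and 5.5 in control and 8.48, 7.94, 8.68, 6.98 and 8.26 in exposed rats (log2 change 2.71, adjusted p = 1.6e-08), a change of 1.65 under the normal-exponential correction. In both, exposed rat 4 was the lowest exposed rat.

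The same rat stood out in the other members. Mx1, which blocks the replication of RNA viruses, was 13.42, 12.82, 12.93, 12.97 and 12.81 in control and 14.33, 13.84, 14.44, 13.19 and 14.12 in exposed rats (log2 change 0.99, SE 0.16, adjusted p = 9.6e-06). Exposed rat 4 lay below control rat 1, with which it shares a slide, so that the difference was -0.23 on that slide and 0.91 to 1.46 on the other 3. With slide as a block among the D3 arrays alone the adjusted p was 0.138. Rsad2 (viperin) rose by 0.98 (adjusted p = 3.6e-06), and by 0.18 on that slide, with an adjusted p of 0.0565 in the same fit. Irf7, the factor that amplifies interferon production, rose by 0.79 (adjusted p = 9.4e-05), with exposed rat 4 at 12.93, inside the control range of 12.65 to 13.17. In the mean over the 23 members exposed rat 4 was at -0.14, and the other exposed rats were at 0.08 to 0.41 and control rats at -0.29 to -0.03. Stat2 and Oas1a changed by 0.18 and 0.39 and were not called. The element through which type I interferon acts, searched as GAAA, any 2 bases and again GAAA on both strands of the 250 bases before the start, was held by 3.29% of all promoters and by 4 of the 6 called members with a promoter in RefSeq. These 4 are shown from GRCr8 with the element in capitals, on the strand of the gene, where the capitals show the reverse complement if the element lies on the other strand (Cxcl10 at chr14:15988816-15988915, plus strand; Irf7 at chr1:205800038-205800137, minus; Ifit3 at chr1:241527226-241527325, plus; Rsad2 at chr6:48788213-48788312, minus).
Cxcl10: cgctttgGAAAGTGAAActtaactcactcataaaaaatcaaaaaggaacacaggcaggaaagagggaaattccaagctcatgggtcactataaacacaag
Irf7: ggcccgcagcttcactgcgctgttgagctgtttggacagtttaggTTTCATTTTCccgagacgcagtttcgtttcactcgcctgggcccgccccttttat
Ifit3: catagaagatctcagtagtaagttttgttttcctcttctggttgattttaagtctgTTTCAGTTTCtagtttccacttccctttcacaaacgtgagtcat
Rsad2: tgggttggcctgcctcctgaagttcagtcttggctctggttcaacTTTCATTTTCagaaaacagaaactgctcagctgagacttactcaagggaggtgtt
In Ifit3 and Irf7 exposed rat 4, at 10.45 and 12.93, was the lowest of its group, as it was in Rsad2 and Cxcl10.

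**Figure D3:**
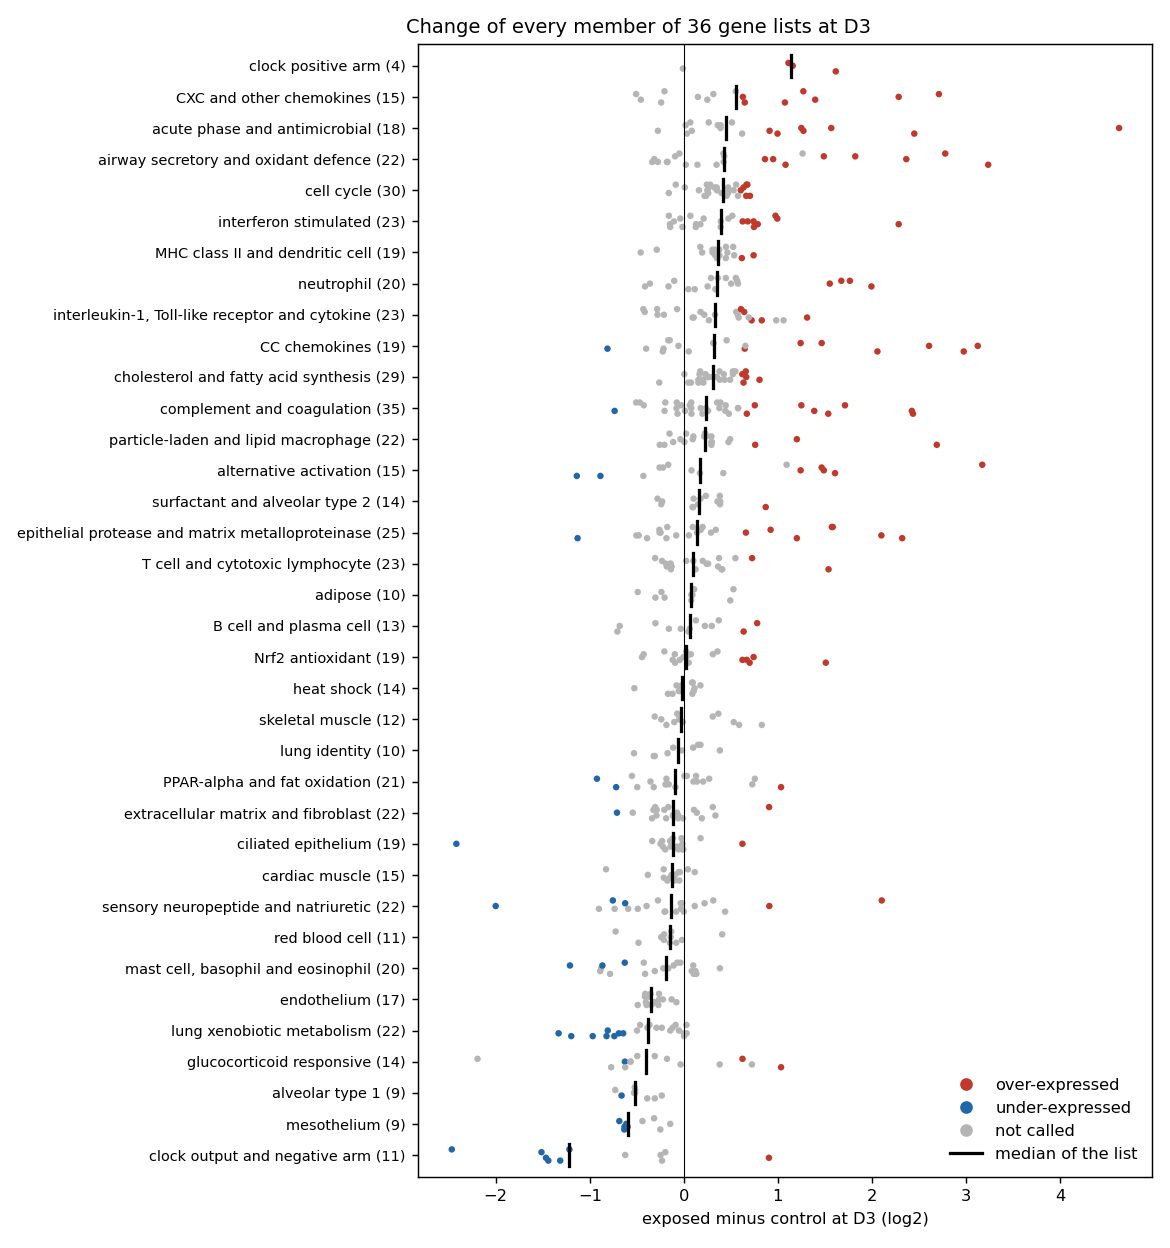
Change of every member of the 36 gene lists at D3: each point is a gene, placed by its log2 difference exposed minus control, coloured by its call, the black tick is the median of the list, and the number of members tested stands in brackets. Medians run from 1.14 in the clock positive arm to -1.22 in clock output, and 20 of the 36 lie above 0. The endothelium, alveolar type 1 and mesothelium lists lie wholly below 0.

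Clock genes had the medians farthest from 0 of the 36 lists. In the circadian clock Arntl (Bmal1), Npas2 and Clock switch on the period genes and the output factors Dbp and Tef, and the nuclear receptors Nr1d1 and Nr1d2 in turn hold Arntl down. Of 11 genes of clock output and the negative arm 6 were under-expressed and 1 over-expressed (median -1.22), and of the 4 genes of the positive arm tested 3 were over-expressed (median 1.14). Neither count changed when any 1 rat was left out. Dbp was 14.87, 14.63, 14.8, 14.63 and 14.89 in control rats and 12.39, 11.82, 12.21, 12.11 and 12.94 in exposed rats (5.53-fold lower, log2 change -2.47, SE 0.24, adjusted p = 1.7e-10), and its 3 probes gave -2.49, -2.45 and -2.43. Arntl was 7.78, 7.83, 7.63, 7.76 and 7.61 in control and 9.35, 9.63, 9.57, 9.32 and 8.83 in exposed rats (log2 change 1.62, SE 0.17, adjusted p = 1.4e-09). In both genes exposed rat 5 was nearest to the control rats, and it was so as well in Nr1d1, Tef, Npas2 and Nfil3.

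Nr1d1 was 10.78, 10.3, 10.75, 10.45 and 10.28 in control and 9.33, 8.92, 9.12, 9 and 9.6 in exposed rats (log2 change -1.31, adjusted p = 0.00460), Nr1d2 fell by 1.47 (adjusted p = 3.8e-08) and Tef by 1.44 (adjusted p = 1.4e-13). Per2 and Per3 fell by 1.51 and 1.22 (adjusted p = 9.3e-07 and 1.0e-07), and Per2 had an adjusted p of 0.0509 among the D3 arrays alone with slide as a block, while Per1, which also answers to stress hormones, changed by -0.62, and Cry1 and Cry2 by -0.25 and -0.20, none of them called. Nfil3, which binds the same sites as Dbp and represses there, rose by 1.16 (adjusted p = 4.6e-10). Npas2 rose by 1.11 (adjusted p = 0.000343), but its 2 probes gave 1.57 and 0.14, and Clock changed by -0.01. The hour at which each rat was killed is not given in the sources used here, and its part in these differences was not tested.

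The clock acts through short promoter elements, of which 3 were searched on both strands in the 250 bases before the start: the E-box CACGTG (held by 5.79% of all promoters), the D-box TTATGTAA (0.816%), where Dbp and Nfil3 compete, and the element GTAGGTCA (0.503%), where Nr1d1 and the ROR receptors compete. The E-box was in 2 and the D-box in 1 of the 7 called output members, and the ROR element in 1 of the 3 called positive members. They are shown with the element in capitals (GRCr8; Arntl, which RefSeq names Bmal1, at chr1:176766228-176766327, plus strand; Per2 at chr9:99497132-99497231, minus; Tef at chr7:115206582-115206681, plus; Bhlhe41 at chr4:180569356-180569455, minus).
Arntl: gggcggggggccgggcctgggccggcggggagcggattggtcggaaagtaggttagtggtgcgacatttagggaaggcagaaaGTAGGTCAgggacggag
Per2: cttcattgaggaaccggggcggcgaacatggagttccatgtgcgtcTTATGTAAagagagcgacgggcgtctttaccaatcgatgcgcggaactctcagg
Tef: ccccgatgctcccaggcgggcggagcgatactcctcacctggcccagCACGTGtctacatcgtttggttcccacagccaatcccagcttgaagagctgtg
Bhlhe41: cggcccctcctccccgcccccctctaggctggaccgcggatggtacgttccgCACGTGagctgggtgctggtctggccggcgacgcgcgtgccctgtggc
Tef and Bhlhe41 share the E-box and moved apart, Tef by -1.44 and Bhlhe41, a repressor that acts at E-boxes, by 0.91 (adjusted p = 2.1e-05).

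Of 14 glucocorticoid-responsive genes 2 were over-expressed and 1 under-expressed, with a median of -0.40, which was -0.26 without exposed rat 1, -0.23 with slide as a fixed block and -0.21 under the normal-exponential correction. Angptl4, an inhibitor of lipoprotein lipase, rose by 1.03 (adjusted p = 6.1e-05). The call of Klf9 (-0.63) was lost without exposed rat 4, and that of Mt2A (0.62) without control rat 1, control rat 3 or exposed rat 4. Fkbp5, Tsc22d3 and Zbtb16, textbook targets of the glucocorticoid receptor, had values of -0.77, -0.57 and -2.19 and were not called (adjusted p for Zbtb16 = 0.0740). No heat shock gene of 14 was called at D3. Hspa1b varied more within each group than between them, from 9.95 to 11.84 in control and from 9.65 to 13.72 in exposed rats.

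Of 29 cholesterol and fatty acid synthesis genes 5 were over-expressed and none under-expressed, with a median of 0.30, and 28 had values above 0. The count was 2 without control rat 5 and 3 in a fit to the D3 arrays alone. Fdps (farnesyl diphosphate synthase) rose by 0.81 (SE 0.08, adjusted p = 4.5e-10), from 12.64 to 13.04 in control rats to 13.59 to 13.86 in exposed rats, and Cyp51 (lanosterol demethylase) by 0.66 (adjusted p = 1.1e-08). Scd1, which desaturates fatty acids, had control rat 5 at 13.95 beside 14.93 to 15.17 in the other control rats and 15.34 to 15.72 in exposed rats. Its log2 change was 0.66 (adjusted p = 0.0120), and 0.43 without control rat 5 (adjusted p = 0.108). Lpcat1, which makes the saturated phosphatidylcholine of surfactant, was the 1 called member of 14 surfactant and alveolar type 2 genes (0.87, adjusted p = 2.3e-10), and Sftpc, Sftpb and Sftpa1 changed by 0.15, 0.10 and 0.38. Of 21 genes of PPAR-alpha and fat oxidation 1 rose (Angptl4) and 2 fell, Ppargc1a by 0.92 and Ucp3 by 0.72, and the count of 2 was 1 without control rat 5, exposed rat 1 or exposed rat 2. In a fit to the D3 arrays alone it was 0, with adjusted p = 0.0554 for Ppargc1a and 0.138 for Ucp3, and Ucp3 was at -0.52, under the fold limit, with slide as a fixed block.

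Lung xenobiotic metabolism had the most under-expressed members of the 36 lists, 8 of 22, with none over-expressed (median -0.38). Fmo2, a flavin monooxygenase of the lung, was 14.23, 14.21, 14.19, 14.55 and 15.06 in control and 13.17, 13.08, 13.24, 13.46 and 13.31 in exposed rats (2.29-fold lower, log2 change -1.20, SE 0.15, adjusted p = 4.8e-08). The cytochromes Cyp2a3, Cyp2e1 and Cyp2b2 fell by 0.97, 0.81 and 0.69, and the sulfotransferase Sult1a1 by 0.82 and the aldehyde dehydrogenases Aldh1a1 and Aldh3a1 by 0.74 and 0.65. Cyp1a1 and Cyp1b1, targets of the aryl hydrocarbon receptor, changed by -0.23 and -0.47, and the club cell cytochrome Cyp2f4 by -0.39, none of them called. Among the largest named decreases were 2 other enzymes of conjugation, Nat8 (-1.73, adjusted p = 4.6e-08, and -0.77 under the normal-exponential correction) and Sult1c2, which was at least 2.51-fold lower because no exposed array measured it above background (adjusted p = 0.00338). That bound holds for the main background correction, since the call of Sult1c2 was lost under the normal-exponential correction (-0.41) and with the series matrix (-0.53).

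Alveolar type 1 and endothelial genes lay below 0 throughout, mostly within the 1.5-fold limit. All 9 alveolar type 1 genes were lower in exposed rats (median -0.52), with 1 called (Hopx, -0.66, adjusted p = 0.0170). Hopx lost its call with slide as a fixed block (-0.48), with slide as a random block (-0.56) and in the D3 arrays alone (adjusted p = 0.16). The count was 0 without control rat 5, exposed rat 1 or exposed rat 2, it was 2 without control rat 3 or exposed rat 4, and 3 without exposed rat 5. The water channel Aqp5 was 15.77, 15.48, 15.83, 15.68 and 15.56 in control and 15.26, 15.29, 15.22, 14.93 and 14.97 in exposed rats, without overlap, at a log2 change of -0.53 (adjusted p = 1.4e-05), under the fold limit. It passed the limit with slide as a fixed block, at -0.60 in the fit to all arrays and -0.59 in the D3 arrays alone (adjusted p = 1.4e-10 and 0.0180). All 17 endothelial genes were lower (median -0.35) and none was called, or 1 without exposed rat 4. Pecam1 and Cldn5 were at -0.32 and -0.26.

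Mesothelium markers, which come from the pleural surface of the lobe, were lower as well: all 9 were below 0 (median -0.60) and 5 were called. Their summed level was 15.15 to 15.54 in control rats and 14.9 to 15.26 in exposed rats, all 9 were well above background on at least 3 of 5 control arrays, and the part of the pleura in the other lower genes was not tested. The count was 1 without control rat 2 or exposed rat 1, and 2 without exposed rat 3, and it was 1 with slide as a fixed block. Upk1b, a membrane protein of this layer, was 12.4, 12.71, 12.44, 12.57 and 12.43 in control and 11.76, 11.97, 11.82, 11.97 and 11.87 in exposed rats (log2 change -0.63, adjusted p = 1.0e-05), and -0.58 without control rat 2, under the fold limit. Among 22 extracellular matrix genes Ctgf fell by 0.71 (adjusted p = 2.6e-05) and Eln (elastin) rose by 0.91 (adjusted p = 0.00100), both with an adjusted p above 0.05 among the D3 arrays alone with slide as a block (0.0856 and 0.116), and 2 genes were under-expressed without control rat 3 or exposed rat 4.

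Genes of sensory nerves and natriuretic peptides held large changes in both directions. Tac1, the precursor of substance P, was 8.82, 8.85, 8.75, 8.86 and 8.91 in control rats and 6.27, 6.62, 6.93, 7.61 and 6.76 in exposed rats, a 4-fold fall (log2 change -2.0, SE 0.19, adjusted p = 9.1e-11). The control rats were within a narrow band and every exposed rat was far below it. Scn10a, a sodium channel best known from pain-sensing neurons, went the other way, at 6.07, 5.97, 5.78, 6.25 and 6.45 in control and 8.24, 7.95, 8.29, 8.16 and 8.41 in exposed rats (4.3-fold, log2 change 2.10, adjusted p = 2.3e-12). Edn3 (endothelin 3) fell by 0.76 (adjusted p = 2.7e-05) and Npy by 0.62 (adjusted p = 0.0153). Of the 22 members 2 were over-expressed and 3 under-expressed (median -0.14), and 5 were under-expressed without exposed rat 4. Calcb, the second over-expressed member (0.91, adjusted p = 0.0474), lost its call without any 1 of 8 rats. Calca and Vip, at -0.59 and -0.90, and the ion channels Trpv1 and Trpa1, at -0.20 and 0.31, were not called.

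The lymphocyte, dendritic cell and granulocyte lists had 2 or 3 called members each. Of 13 B cell genes 2, of 23 T cell genes 2 and of 19 MHC class II and dendritic cell genes 2 were over-expressed (medians 0.06, 0.10 and 0.36). These are 15.4%, 8.7% and 10.5% of the members, against 1.89% of all genes. The B cell median was 0.24 without control rat 1, and the T cell median was -0.04 without exposed rat 4, -0.07 with array weights and -0.05 with a stricter filter on dim genes. The MHC class II and dendritic cell median was 0.31 to 0.40 without 1 rat. The counts were 1 for B cells without control rat 3, control rat 4 or exposed rat 5, 1 for T cells without exposed rat 2 and 0 in a fit to the D3 arrays alone, and 1 for MHC class II without control rat 2. Mzb1 of plasma cells rose by 0.78, Icos, a co-stimulatory receptor of activated T cells, by 0.73 and Clec9a of cross-presenting dendritic cells by 0.74 (adjusted p = 0.000130, 0.000324 and 0.000239), with Mzb1 the 1 of these 3 whose groups overlapped. Icos and Clec9a were below the fold limit under the normal-exponential correction, at 0.47 and 0.56. The call of Il2ra (1.54) was lost without exposed rat 2 (1.08, adjusted p = 0.109). It was also lost with spots marked by the extraction software kept (0.24, adjusted p = 0.893) and in the D3 arrays alone (adjusted p = 0.144). Il2ra was well above background on 2 of 5 control arrays. Of 20 mast cell, basophil and eosinophil genes 3 were under-expressed (median -0.19), and 1 without control rat 2 or without exposed rat 2. That 1 was Ear11, an eosinophil-associated ribonuclease, at 9.95, 10.03, 9.86, 9.68 and 9.98 in control and 8.46, 8.8, 8.61, 8.84 and 8.73 in exposed rats (log2 change -1.21, SE 0.12, adjusted p = 6.9e-10). A further ribonuclease, Rnase17, was among the 10 largest named decreases (-1.58, adjusted p = 2.2e-05, and -0.65 under the normal-exponential correction). Of 19 ciliated epithelium genes 1 fell (Ccdc116) and 1 rose (Tekt2, 0.62, lost without control rat 5), and Foxj1, the regulator of cilia formation, changed by -0.02.

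The remaining large changes had less in common. Tnn (tenascin N) rose by 3.14 (adjusted p = 2.1e-10), but 1 of its 2 probes gave 3.23 and the other, below background on all arrays, 0.57, and its value was 1.07 under the normal-exponential correction. Rasgef1c, a regulator of Ras proteins, was at least 5.71-fold higher, as no control array measured it above background (adjusted p = 6.6e-06), a bound that holds for this background correction, since its log2 change was 0.83 under the normal-exponential correction. Ccdc116 was 8.95, 9.12, 8.41, 8.23 and 9.38 in control and 5.43, 5.43, 5.98, 7.71 and 7.46 in exposed rats (log2 change -2.42, adjusted p = 7.9e-06), with exposed rats 4 and 5 nearest to the control rats. Sytl5, a partner of Rab proteins in vesicle transport, was at least 4.30-fold lower (adjusted p = 9.8e-08). This bound too holds for this background correction, since the log2 change of Sytl5 was -0.70 under the normal-exponential correction. Actrt3 was at least 2.85-fold lower by the same background correction (adjusted p = 0.000762). Its call was lost with the series matrix (-0.23), the normal-exponential correction (-0.48) and marked spots kept (-0.89, adjusted p = 0.272). Fam46b fell by 1.98 (adjusted p = 4.7e-06), from 9.3 to 9.88 in control rats to 7.4 to 7.94 in exposed rats, and Epm2a (laforin, which acts on glycogen) fell by 1.79 (adjusted p = 1.3e-05), or by 1.00 under the normal-exponential correction.

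**Figure D4:**
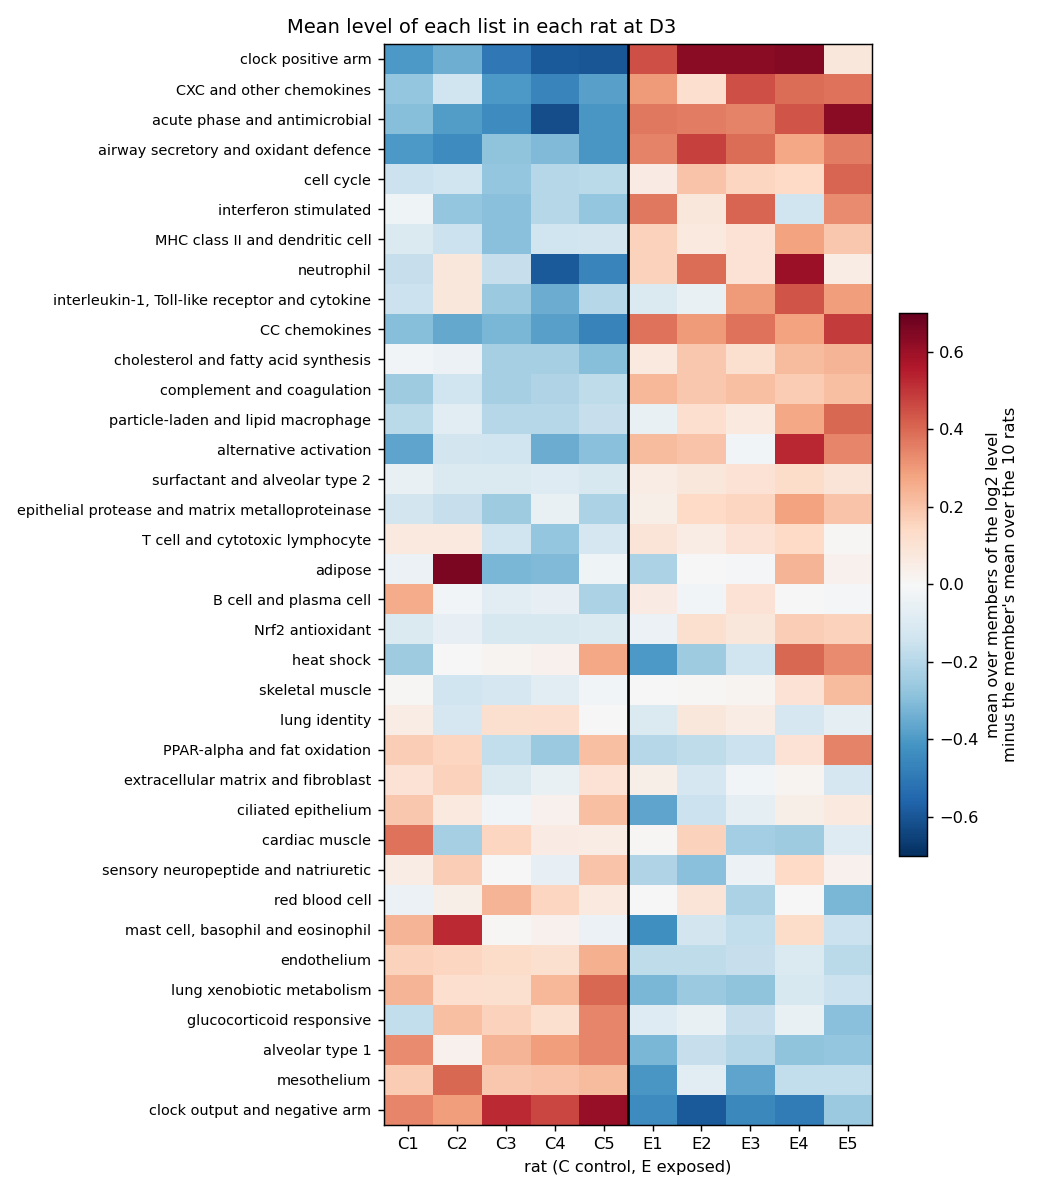
Mean level of the 36 lists in each of the 10 rats at D3: colour is the mean over members of the log2 level minus the member's mean over the 10 rats, control rats (C1 to C5) stand left of the line and exposed rats (E1 to E5) right of it. Clock output is at 0.29 to 0.61 in control and -0.59 to -0.26 in exposed rats, CC chemokines are at -0.47 to -0.3 and 0.28 to 0.49, and interferon-stimulated genes show exposed rat 4 at -0.14, within the control range.

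The D3 response was then set beside those of D0 and D28, each measured against its own control rats. At D0, 1053 genes were DEGs (4.17%) and at D28 327 (1.3%). Of the 877 DEGs of D3, 372 were DEGs in the same direction at D0, which is 42.4% of the D3 list and 35.3% of the D0 list, and 5 were so in the opposite direction. With D28 the D3 list shared 116 in the same direction (13.2% of the D3 list and 35.5% of the D28 list) and 29 in the opposite one, and 96 were DEGs in 1 direction at all 3 days. The difference itself was tested for each gene. The exposure effect at D3 differed from that at D0 in 166 genes (0.658%), higher in 57 and lower in 109, and from that at D28 in 309 genes (1.22%), higher in 165 and lower in 144.

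Cell cycle genes set D3 apart from D0. At D0 21 of the 30 were over-expressed, against 2.72% of all genes, and the effect was lower at D3 in 15 and higher in none, against 0.432% of all genes that were lower. Ccnb1 changed from 1.82 at D0 to 0.70 at D3, a difference of -1.11, and Ccna2 from 1.74 to 0.67, a difference of -1.08. In Ccnb1 the control rats were at 6.37 ± 0.20 (SD, n = 5) at D0 and 7.78 ± 0.19 at D3, and the exposed rats at 8.19 ± 0.25 and 8.49 ± 0.22, so that the exposed levels lay close together and the control levels did not. Ccna2 had the same order, with control rats at 7.64 ± 0.33 and 9.06 ± 0.10 and exposed rats at 9.38 ± 0.14 and 9.72 ± 0.15. Of the 23 members of the interferon-stimulated list 1 was over-expressed at D0 and 8 at D3, against 2.72% and 1.89% of all genes. Of the single differences Rsad2 (0.89) was called higher at D3 and no other member was.

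Hspa1b fell by 2.81 at D0 and changed by 0.11 at D3, and Nr1d1 fell by 3.27 at D0 and 1.31 at D3. The difference in Hspa1b, 2.92, was lost without control rat 1 (2.63, adjusted p = 0.0531) and with the arrays of these days alone (adjusted p = 0.277). Scd1 was under-expressed at D0 (-0.75) and at D28 (-1.68), so that its value at D3 lay on the other side. Isl1, a transcription factor, was lower at D3 only among the 3 days, at least 2.53-fold (adjusted p = 2.7e-05), with values of 0.46 at D0 and 0.03 at D28. That bound holds for the main background correction, since the call of Isl1 at D3 was lost under the normal-exponential correction (-0.49).

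Against D28, chemokines and clock genes were among the named differences. Cxcl5 was over-expressed by 4.07 at D0 and 3.96 at D3 and changed by 0.01 at D28 (difference 3.95, adjusted p = 5.8e-07). Its control rats were at 3.71 ± 0.44 at D3 and at 5.61 ± 1.1 at D28, and its exposed rats at 7.67 ± 0.41 and 5.63 ± 0.59. Ccl12 changed by 3.13 at D3 and -0.11 at D28 (difference 3.23, adjusted p = 0.000373), and Ccl7, Cxcl1, Cxcl11 and Lcn2 also had larger effects at D3, by 1.81, 1.6, 1.93 and 1.86. Orm1, Lpo and Kng1 did not follow this order, with 4.43, 3.27 and 2.44 at D28 beside 4.63, 3.24 and 2.44 at D3, with differences between the days of 0.20 (SE 0.61), -0.04 (SE 0.41) and 0.00 (SE 0.20), none of them called.

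Clock genes had opposite signs at D3 and D28. Dbp was at -1.99 at D0, -2.47 at D3 and 3.25 at D28, a difference of -5.72 between D3 and D28 (adjusted p = 6.7e-16), and Arntl was at 1.25, 1.62 and -1.46, a difference of 3.08 (adjusted p = 4.1e-12). Dbp in control rats was 14.76 ± 0.13 at D3 and 10.3 ± 0.16 at D28, and in exposed rats 12.3 ± 0.42 and 13.55 ± 0.79. The control rats thus differed between the days by more than either exposure effect. Arntl in control rats was 7.72 ± 0.098 at D3 and 10.26 ± 0.13 at D28. Of the 11 output genes 6 were under-expressed at D3 and 7 over-expressed at D28, against 1.58% and 0.832% of all genes. The effect was lower at D3 in 7, against 0.571% of all genes.

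**Figure D5:**
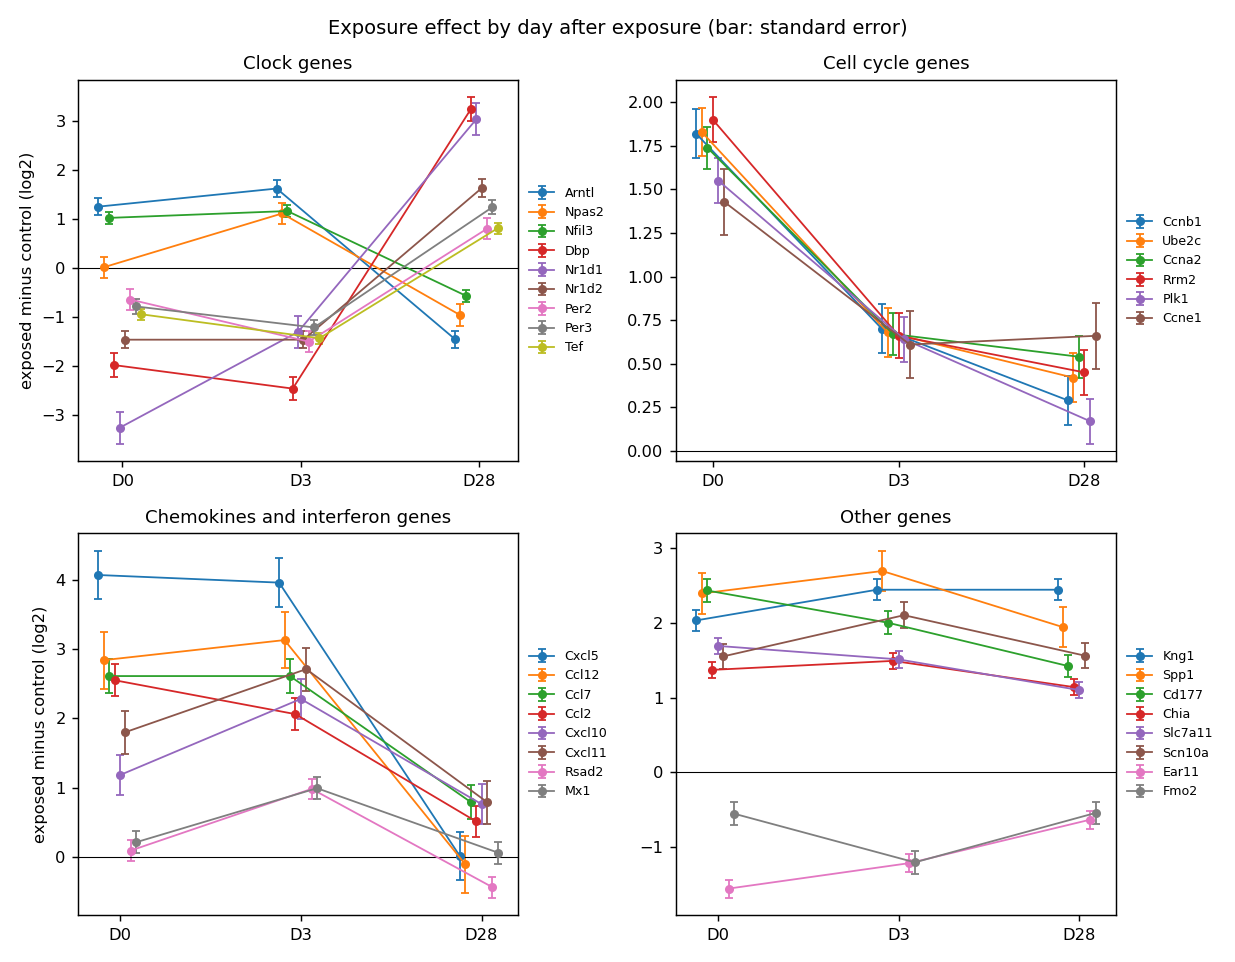
Exposure effect at D0, D3 and D28 for clock, cell cycle, chemokine and interferon, and other genes: points are log2 differences exposed minus control from limma, bars are standard errors, each day has its own 5 control and 5 exposed rats, and points are offset sideways for reading. Dbp runs from -2.47 at D3 to 3.25 at D28, Ccnb1 from 1.82 at D0 to 0.70 at D3, Cxcl5 from 3.96 at D3 to 0.01 at D28, and Kng1 stays near 2.44 at D3 and D28.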

How the data were processed

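Lung RNA of each rat was labelled with Cy3 (100 ng) and hybridised to a one-colour Agilent array, scanned by the authors. The deposited files hold, per the file headers, spot intensity on a linear scale from Agilent Feature Extraction 11.0.1.1, whose processed signal is background-corrected and not scaled between arrays. A later release is named in the paper. A series matrix, deposited as well, holds quantile normalized linear intensity values and served as an alternative. The authors' own analysis used quantile normalization, unnamed batch terms and limma.

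Here the processed signal of 58717 gene spots per array was used, without spots marked as not uniform or outliers. Spots were averaged on the linear scale by gene name (25885 names), log2 transformed and quantile normalized over all 50 arrays. A spreadsheet had changed 84 spot names in 22 files, and these names were read from the rest. A gene was kept if it exceeded the 95th percentile of negative control spots on 5 or more arrays (25237 genes). All 10 groups were fitted with limma 3.58.1 in R 4.3.3, without covariates, p-values were two-sided and Benjamini-Hochberg adjusted over all genes, and genes with an adjusted p under 0.05 and at least 1.5-fold were called. Script steps were tested on simulated data.

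Where no array of a group was well above background, the fold is a lower bound against the lowest such signal. Such a bound holds for the main background correction only, and the normal-exponential correction gave smaller changes. The number of arrays limits the precision. The members and the 36 gene lists (616 genes, 30 in more than 1 list) were chosen with earlier results of these data known. Of the genes in more than 1 list 8 were called at D3, so the list counts are not independent. Named genes are the 10 largest changes in each direction among called genes with a symbol, detected on at least 3 of 5 arrays of the higher group and without overlap, up to 3 called members of each list (or its largest change), and the 4 largest differences each way between D3 and D0 or D28. Other list members are named to show the spread of a list and were chosen after their values were seen. Promoter sequences came from RefSeq (GRCr8), and gene positions were not otherwise used. The alternatives tried are given with the dependence on processing. Some genes that these rules or lists hold are not reported here. Lungs of D90 and D180 entered the fit and are not described.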

Additional observations from a re-analysis of the deposited data

Results flagged for a closer look

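In 10 of 202 groups of 5 rats (4.95%) 1 rat stood apart from the other 4 of its group by a gap test that flags about 1 in 20 groups by chance. These were in control rats Rnase17 in rat 4 (7.08), Mt2A in rat 2 (12.2), Ccnb1 in rat 3 (7.45), Mx1 in rat 1 (13.42), Scd1 in rat 5 (13.95), Mzb1 in rat 3 (8.38) and Icos in rat 4 (6.16). In exposed rats they were Kng1 in rat 4 (10.92), Npas2 in rat 5 (7.9) and Ucp1 in rat 2 (5.53). No rat had more than 2 of them.

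In 14 named genes the exposure effect at D3 differed from that at D0, by the limma test of the difference. It was higher at D3 in Hspa1b (2.92), Dlk1 (2.62), Zp1 (2.25), Nr1d1 (1.95), Scd1 (1.41) and Rsad2 (0.89). It was lower at D3 in Dnase2b (-1.9), Depdc1 (-1.76), Nat8 (-1.47), Ube2c (-1.15), Ccnb1 (-1.11) and Ccna2 (-1.08), and in Olr1424 and Isl1. No exposed array at D3 measured the last 2 above background, so their fitted differences (-3.64 and -1.84) are no measured sizes, and under the normal-exponential correction they were -1.14 and -0.63. The difference in Olr1424 was lost with the series matrix and with the arrays of these days alone (adjusted p = 0.0537 and 0.321). Those in Hspa1b, Dlk1 and Depdc1 were also lost with the arrays of these days alone (adjusted p = 0.277, 0.299 and 0.0785). Dlk1 was well above background on 1 of 5 control and 1 of 5 exposed arrays at D3. Nat8, a gene of acetylation, was under-expressed at D3 (-1.73) and changed by -0.26 at D0. The difference in Dnase2b was lost under 9 alternatives, among them the normal-exponential correction (-0.39, adjusted p = 0.559), the series matrix (-0.49), scaling to the 75th percentile (-1.54), the arrays of these days alone (adjusted p = 0.3), and leaving out control rat 1, control rat 2 or exposed rat 1.

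In 38 named genes the effect at D3 differed from that at D28. Among chemokine and acute phase genes it was higher at D3 in Cxcl5 (3.95), Ccl12 (3.23), Cxcl11 (1.93), Lcn2 (1.86), Ccl7 (1.81), Cxcl1 (1.6), Cxcl10 (1.53) and Hpx (0.85). The innate immunity and interferon genes Il1r2 (1.37), Cd14 (0.8), Mx1 (0.94) and Rsad2 (1.42) were also higher. Airway, matrix and lipid genes with a higher effect at D3 were Slc26a4 (1.71), Prss30 (1.68), Tnn (2.08), Eln (1.78), Lpcat1 (0.6), Fdps (0.73), Scd1 (2.34) and Angptl4 (0.99).

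Clock genes lay on both sides, with Dbp (-5.72), Nr1d1 (-4.35), Nr1d2 (-3.09) and Per2 (-2.32) lower and Arntl (3.08), Npas2 (2.08) and Nfil3 (1.72) higher at D3. Further genes lower at D3 than at D28 were Ccdc116 (-3.81), Epm2a (-3.54), Fam46b (-2.4), Nat8 (-1.61), Tac1 (-1.36), Cyp2a3 (-1.34) and Upk1b (-0.62). Zp1 (2.6) was higher. Sytl5 and Isl1 were lower and Htr5b higher, with fitted differences (-2.11, -1.41 and 3.13) that are no measured sizes, as 1 group of each was not well above background on any array at D3. Htr5b was not called at D3 (adjusted p = 0.113), and its difference was lost with the arrays of these days alone (adjusted p = 0.289). The hour of necropsy of each rat is not given in the sources used here.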

How the results depend on the processing

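Of 877 DEGs at D3, 468 were left with the normal-exponential correction, 535 with the series matrix, 523 with the D3 arrays alone and 307 at 2-fold, and there were 2220 with array weights, 2691 with no fold limit and 1476 at an unadjusted p. The 478 over-expressed genes became 1142 with array weights, 1204 with no fold limit, 748 at an unadjusted p and 197 at 2-fold. The 399 under-expressed genes became 145 (normal-exponential), 161 (series matrix), 204 (D3 arrays alone), 247 (D3 arrays with slide as a block), 1078 (array weights), 1487 (no fold limit), 728 (unadjusted p) and 110 (2-fold). The D3 minus D0 count of 166 became 317 and 330 with slide as a fixed and a random block, 72 with the arrays of these days alone, 328 with array weights, 1023 at an unadjusted p and 88 at 2-fold. The D3 minus D28 count of 309 became 489 with slide as a random block, 197 with the arrays of these days alone, 520 with no fold limit, 1070 at an unadjusted p and 135 at 2-fold. The 818 genes of 1 direction on all slides became 455 (normal-exponential) and 516 (series matrix), fewer genes being called. Leaving out 1 rat gave 709 to 1189 DEGs, 402 to 569 over-expressed, 299 to 620 under-expressed, 135 to 198 for D3 minus D0 and 276 to 350 for D3 minus D28. Lists with a median above 0 numbered 20, and 18 to 23 without 1 rat.

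No DEG was called in the opposite direction under any alternative. Of 89 named genes called at D3, 55 kept the call in all 23 settings, and 27 of 36 list medians kept their sign. Il2ra changed sign with the series matrix (-0.12). Genes without a call also changed sign. Without 1 rat Hspa1b (0.11) ran from -0.51 to 0.51, Dlk1 (0.17) from -0.28 to 0.49 and Dnase2b (-0.12) from -0.27 to 0.14. Dnase2b was also at 0.06 with slide as a fixed block and at 0.05 with that block in the D3 arrays alone. The cause was not tested.

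Deviations of same-numbered rats correlated at -0.311 to 0.307, and 1 of 10 arrays correlated best with its own number. The first principal component followed slide by 98%, and of the same-numbered rats only those numbered 5 shared a slide. Their correlation was the highest, 0.307. This check therefore cannot tell whether the replicate numbers pair the rats. With the replicate number as a block, the DEGs numbered 836, 464 higher and 372 lower in exposed rats, and 799 of the 877 were called again. Exposed rat 1, alone on its slide, had the highest negative control signal (95th percentile 21.5, others 3.39 to 11.3), which limits what dim genes show in it.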
